A study of Mus musculus with 8 samples.

Results

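The enzymes that build, desaturate and elongate fatty acids were followed in mouse embryonic stem (ES) cells, pluripotent cells derived from the early embryo, in which one of a pair of splicing proteins could be degraded. The 10 genes were taken as a fixed list of enzymes whose transcription is linked to the factor SREBP1, and they were Acly, Acss2, Acaca, Fasn, Scd1, Scd2, Elovl5, Elovl6, Fads1 and Fads2. All 10 were present among the 55291 gene symbols of each library, and all 10 were among the 16371 genes with enough counts to be tested. The study examined DHX35, an RNA helicase of the spliceosome, and its activator GPATCH1, for their part in the rejection of aberrant splicing substrates. In the DHX35-dTAG and GPATCH1-dTAG lines, the named protein carries a degron at its own gene, which the compound dTAG-13 couples to the cell's protein degradation machinery. Each line was given DMSO, the solvent, or 200 nM dTAG-13 for 4 h, and each of the 4 groups held 2 libraries.

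The cells were labelled E14, although the growth protocol of the same samples refers to R1 cells. The medium held serum, LIF and the inhibitors PD0325901 and CHIR99021 in all groups. By the study's methods, colonies grown from single cells were picked and several clones were kept for each line. Which clone gave which library is not given in the sources used here. Untagged cells with dTAG-13 were not analysed here, so an effect of the compound and an effect of losing the tagged protein cannot be told apart.

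Fatty acids are built in the cytosol from acetyl-CoA. ATP citrate lyase (Acly) and acetyl-CoA synthetase (Acss2) supply acetyl-CoA, acetyl-CoA carboxylase 1 (Acaca) turns it into malonyl-CoA in the committed step, and fatty acid synthase (Fasn) joins these units into palmitate. Stearoyl-CoA desaturases (Scd1, Scd2) place the first double bond, Elovl6 and Elovl5 lengthen saturated or polyunsaturated chains, and Fads1 and Fads2 desaturate polyunsaturated fatty acids at the delta-5 and delta-6 positions. SREBP1 and its relative SREBP2 are held in the endoplasmic reticulum while sterols are plentiful, and are cleaved to act on the genes of fatty acid and cholesterol synthesis when sterols are scarce. Both gene groups can therefore move together, although SREBP2 acts more on the cholesterol branch.

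Dividing cells need these enzymes for membrane lipids. At 4 h after the addition of dTAG-13, the differences in their mRNAs were small. No member passed the adjusted threshold in either line or across both lines. The desaturase Scd2 had the smallest unadjusted p of the members across both lines. It stood 26.1% above its DMSO level when DHX35 was targeted and 13.5% above it when GPATCH1 was. The first difference, a log2 fold change of 0.335, was 0.239 without DMSO replicate 1 of the DHX35-dTAG line, a library unlike the others. The 4 dTAG-13 libraries of Scd2 all lay above its 4 DMSO libraries, as they did for 1.03% of all genes tested. Acss2 was the only member below its DMSO level in DHX35-dTAG cells. These are levels in bulk RNA, in which fewer cells of a type and less RNA per cell cannot be told apart.

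The members lay on 5 chromosomes of GRCm38 (mm10), and 4 of them lay on chromosome 19 in 2 pairs of related genes. The first pair was Scd2 (ENSMUSG00000025203.6, chr19:44293674-44306864, plus strand) and Scd1 (ENSMUSG00000037071.3, chr19:44394455-44407879, minus strand), which were 87.6 kb apart. The second was Fads2 (ENSMUSG00000024665.8, chr19:10062765-10101746, minus strand) and Fads1 (ENSMUSG00000010663.5, chr19:10182888-10196877, plus strand), 81.1 kb apart. Chromosome 11 held Acaca (ENSMUSG00000020532.18, chr11:84129672-84401651, plus strand), Acly (ENSMUSG00000020917.17, chr11:100476353-100528000, minus strand) and Fasn (ENSMUSG00000025153.9, chr11:120805846-120824547, minus strand). Acss2 (ENSMUSG00000027605.18) lay at chr2:155517948-155585724 on the plus strand, Elovl6 (ENSMUSG00000041220.10) at chr3:129532355-129638495 on the plus strand and Elovl5 (ENSMUSG00000032349.13) at chr9:77917364-77984519 on the plus strand. All are protein-coding genes, and each count is over the whole gene, so that exons, introns and untranslated regions were not separated.

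The 2 stearoyl-CoA desaturases are close copies, which matters for how a read can be assigned to one of them. Their coding sequences, of 1068 bases in Scd1 and 1077 bases in Scd2, were identical at 90.4% of the aligned positions. The longest identical run was 147 bases, close to the length of a single read by the study's methods. The stretch around that run is shown for both genes from the GENCODE M21 transcripts (GRCm38), from coding base 499 to 693 of Scd1 and from 508 to 702 of Scd2, and the identical run is in capitals.
Scd1: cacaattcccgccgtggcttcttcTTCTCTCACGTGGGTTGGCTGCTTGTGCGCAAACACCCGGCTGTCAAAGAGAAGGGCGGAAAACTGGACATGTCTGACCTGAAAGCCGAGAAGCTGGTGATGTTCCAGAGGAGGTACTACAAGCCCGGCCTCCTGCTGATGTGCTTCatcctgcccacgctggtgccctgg
Scd2: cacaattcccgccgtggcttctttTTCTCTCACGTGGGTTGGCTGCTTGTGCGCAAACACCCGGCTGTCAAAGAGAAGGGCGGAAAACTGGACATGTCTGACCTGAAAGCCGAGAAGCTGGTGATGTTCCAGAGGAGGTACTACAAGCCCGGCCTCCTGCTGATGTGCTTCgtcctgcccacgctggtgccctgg
Over whole transcripts the overlap was small: 4.56% of the 50-base words of Scd1 and 3.97% of those of Scd2 occurred in another gene. The other pairs were further apart, with 66.6% identity between the coding sequences of Fads1 and Fads2 and 52.3% between those of Elovl5 and Elovl6.

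Among the remaining members, Acaca shared the most sequence with another gene, with 30.4% of its 50-base words found elsewhere, nearly all of them in the pseudogene Gm5182. That pseudogene had 493 counts over the 8 libraries against 12722 for Acaca. Acss2 shared 9.12% of its exon bases with genes on the opposite strand, among them Gss, and its counts are uncertain because the strand setting of the counting is not given in the sources used here. Gss had 10046 counts over the 8 libraries against 1614 for Acss2, and the share of Acss2 counts that could come from it was not tested. No 50-base word of Acly, Fasn, Elovl5 or Fads1 occurred in another gene.

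Promoter sequences of 300 bases (250 before the start and 50 after it, from RefSeq, GRCm38.p6) were found for 7 of the 10 members, all except Scd1, Scd2 and Fads1. That of Acaca, at chr11:84195188-84195487, lies inside the gene span given above and not at its beginning. The 7 sequences were searched on both strands for the core of a sterol response element (TCACNCCAC), for the CCAAT box bound by NF-Y (CCAAT) and for the GC box bound by Sp1 (GGGCGG), since NF-Y and Sp1 are known partners of SREBP. The sterol response core was in 0 of the 7, against 1.24% of 32851 promoters in the table, the CCAAT box in 4 against 37.4%, and the GC box in 3 against 35.7%. The 100 bases before the start are shown for Fasn, at chr11:120824548-120824647 on the minus strand, with its CCAAT boxes in capitals, of which a pair overlaps in 1 run. Those of Acly, at chr11:100528001-100528100 on the minus strand, are shown with its GC boxes in capitals.
Fasn: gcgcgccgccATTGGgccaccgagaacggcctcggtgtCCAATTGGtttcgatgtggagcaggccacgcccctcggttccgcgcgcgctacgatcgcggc
Acly: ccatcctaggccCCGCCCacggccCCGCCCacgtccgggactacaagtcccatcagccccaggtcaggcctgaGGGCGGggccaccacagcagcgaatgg
A match is a description of the letters only, and the absence of one says nothing of the factor.

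The libraries held between 12014203 and 14994173 counts. Gm23935 and CT010467.1, which had the most counts, took between 1.27% and 20.9% of them. Levels are given as CPM, counts scaled to a common library size after TMM normalization. DMSO replicate 1 of the DHX35-dTAG line was unlike the others, with a mean Spearman correlation of 0.978 with the other libraries against 0.989 to 0.990 for the rest, and many values are given both with and without it. The mRNAs of the tagged genes do not report on their proteins. Dhx35 was between 72.3 and 84.8 CPM in DHX35-dTAG cells, and Gpatch1 was between 6.90 and 7.31 CPM in GPATCH1-dTAG cells and between 23.2 and 25.6 CPM in the other line. Pluripotency markers, 10 genes, summed to between 5730 and 6410 CPM, fibroblast markers to between 4.42 and 7.24 CPM with Lum and Postn at 0, adipocyte markers to at most 0.434 CPM with Lep at 0, and hepatocyte markers to at most 0.354 CPM with Alb and Serpina1a at 0. Primitive endoderm markers summed to between 4.14 and 5.40 CPM and trophoblast markers to between 48.3 and 61.6 CPM. No tested marker of these 6 lists was called by edgeR in any comparison (0.0% of all genes for treatment, 0.0916% between the lines in DMSO). Tested were all 10 pluripotency markers, 3 of 8 fibroblast, 3 of 6 primitive endoderm and 3 of 5 trophoblast markers. No adipocyte or hepatocyte marker had enough counts to be tested, so none of these could be called. The fibroblast, trophoblast and pluripotency sums were highest in DMSO replicate 1 of the DHX35-dTAG line, but their genes went apart there. Dppa5a, Pou5f1 and Utf1 were at their highest of all libraries, while Nanog, Zfp42, Klf4, Tfcp2l1 and Tdgf1 were at their lowest. Col1a1 and Thy1 were at their highest and Pdgfra at its lowest, and Cdx2, Eomes and Tfap2c were each higher in another library. The part of these differences in the results was not tested.

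**Figure D1:**
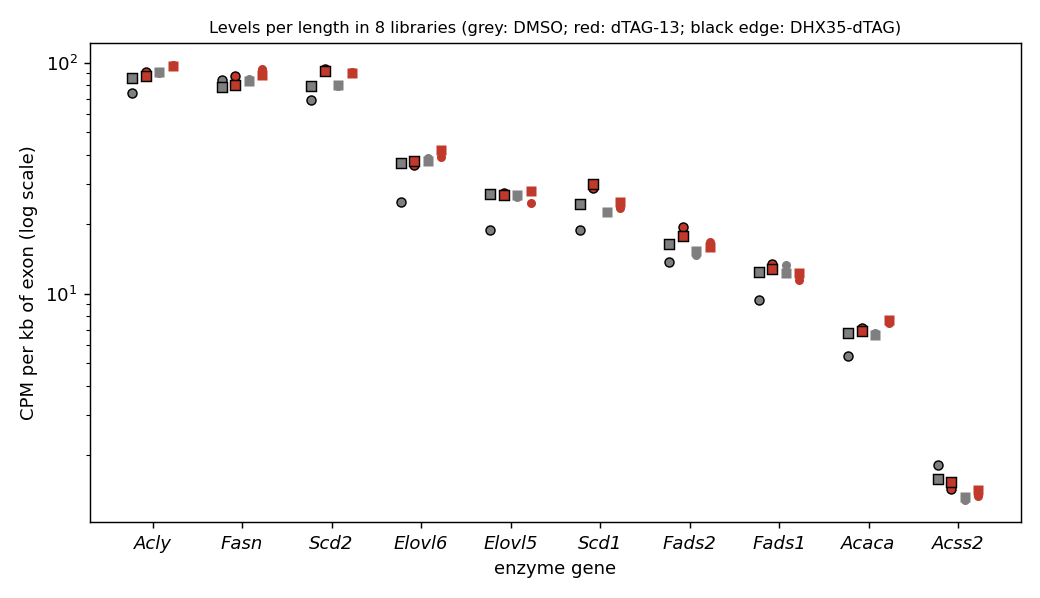
Level of each enzyme gene in the 8 libraries, in CPM per kb of exon on a log scale, with genes ordered by their mean. Grey points are DMSO and red points dTAG-13, points with a black edge are DHX35-dTAG cells, and circles and squares are replicates 1 and 2; Acly, Fasn and Scd2 lie near 85 to 90 CPM per kb, and Acss2 is lowest at 1.46.

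The levels of the members spanned a wide range. Per kb of exon, the mean over the 8 libraries was 89.5 ± 7.3 CPM per kb for Acly, 85.4 ± 4.9 for Fasn and 84.6 ± 8.9 for Scd2 (SD, n = 8), and the ranges of these 3 overlapped. Elovl6 followed at 36.6 ± 5.0, Elovl5 at 25.7 ± 2.9 and Scd1 at 24.5 ± 3.5 CPM per kb, where Elovl6 was above Elovl5 in all 8 libraries and Elovl5 above Scd1 in 5 of 8. Fads2 at 16.3 ± 1.8, Fads1 at 12.2 ± 1.3 and Acaca at 6.83 ± 0.69 CPM per kb came next, each above its next neighbour in all 8 libraries. Acss2 was lowest by this measure, at 1.46 ± 0.18 CPM per kb. Of the desaturase pair, Scd2 was the more abundant, with 3.48 to 4.35 times the CPM of Scd1, while Fads1 and Fads2 had near-equal CPM, in ratios from 1.00 to 1.32. Fasn alone made up between 34.0% and 41.8% of the summed CPM of the members.

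**Figure D2:**
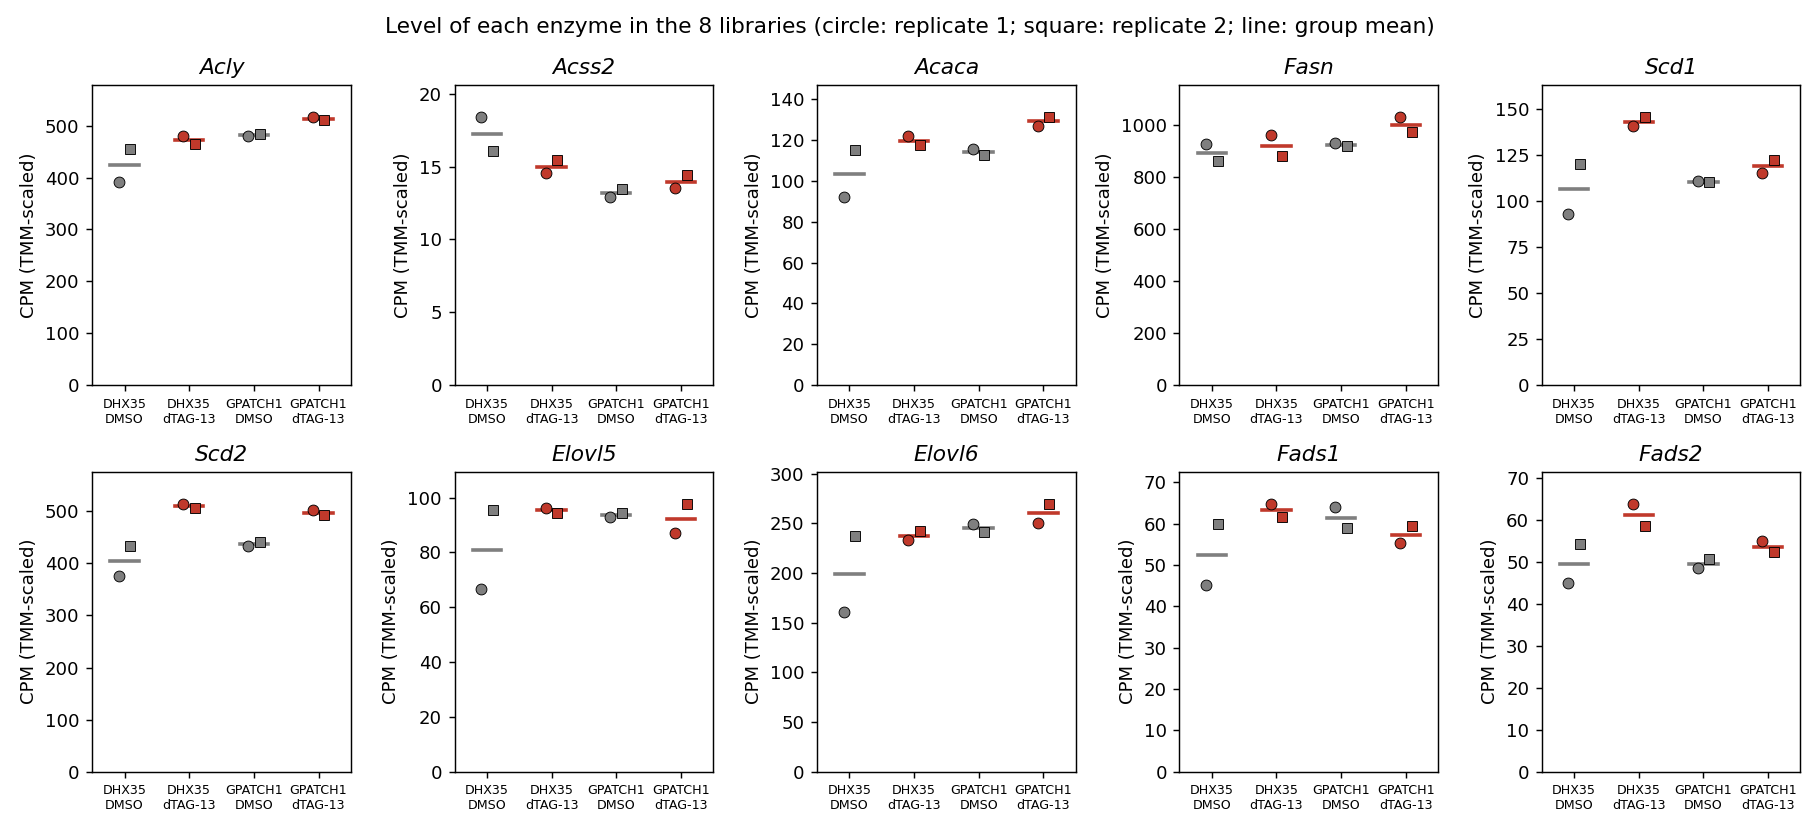
Level of each enzyme gene in CPM (counts scaled to a common, TMM-adjusted library size) by group, with each axis starting at 0. Circles are replicate 1, squares replicate 2 and lines group means, grey for DMSO and red for dTAG-13; DMSO replicate 1 of the DHX35-dTAG line is the lowest library for 8 of the 10 genes, and in GPATCH1-dTAG cells both dTAG-13 libraries lie above both DMSO libraries for 8 of 10.

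In the supply of acetyl-CoA, Acly stood at 392.1 and 454.4 CPM in DMSO and at 481 and 464 CPM in dTAG-13 in DHX35-dTAG cells. In GPATCH1-dTAG cells, Acly stood at 479 and 483 CPM in DMSO and at 517 and 510 CPM in dTAG-13. Within each line the groups did not overlap, but the gap between the nearest libraries was a small part of the level. The log2 fold change of Acly was 0.16 (95% interval -0.04 to 0.36) in DHX35-dTAG cells and 0.09 (-0.11 to 0.30) in GPATCH1-dTAG cells, and the quasi-likelihood test of edgeR gave Benjamini-Hochberg adjusted p = 0.715 and 1.0. The value in DHX35-dTAG cells was 0.06 without DMSO replicate 1.

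Acss2, which makes acetyl-CoA from acetate, was the least expressed member, with 152 to 250 counts per library. Its level was 18.4 and 16.1 CPM in DMSO and 14.5 and 15.5 CPM in dTAG-13 in DHX35-dTAG cells. It was 12.9 and 13.4 CPM in DMSO and 13.5 and 14.4 CPM in dTAG-13 in GPATCH1-dTAG cells. The groups separated in opposite directions in the 2 lines, lower with dTAG-13 in the first and higher in the second. The log2 fold changes were -0.20 (95% interval -0.47 to 0.08) and 0.08 (-0.20 to 0.36), and the difference between the 2 responses, 0.28 (-0.11 to 0.67), did not pass (edgeR, adjusted p = 0.862). Without DMSO replicate 1 of the first line, its value was -0.10 and the difference was 0.18.

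Acaca, the enzyme of the committed step, was at 92.1 and 115 CPM in DMSO and 122 and 117 CPM in dTAG-13 in DHX35-dTAG cells. In GPATCH1-dTAG cells it was at 116 and 113 CPM in DMSO and at 127 and 131 CPM in dTAG-13. Its 4 dTAG-13 libraries all lay above its 4 DMSO libraries, although the margin in DHX35-dTAG cells was 115 against 117 CPM. Across both lines, the log2 fold change was 0.19 (95% interval 0.03 to 0.35), with an unadjusted p of 0.0243 in edgeR's fit across all genes and an adjusted p of 0.963.

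Fasn, which carries out palmitate synthesis, was the member with the highest CPM. Its level was 925 and 862 CPM in DMSO and 961 and 879 CPM in dTAG-13 in DHX35-dTAG cells, where the groups overlapped. It was 930 and 919 CPM in DMSO and 1030 and 973 CPM in dTAG-13 in GPATCH1-dTAG cells, where they did not. The log2 fold changes were 0.04 (95% interval -0.15 to 0.24) and 0.11 (-0.08 to 0.31), and edgeR gave adjusted p = 0.886 and 1.0. The upper ends of these intervals are 1.18-fold and 1.24-fold, and the first value was 0.10 without DMSO replicate 1.

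Scd1, one of the desaturases that make oleate, was at 92.9 and 120 CPM in DMSO and at 141 and 146 CPM in dTAG-13 in DHX35-dTAG cells. In GPATCH1-dTAG cells it was at 111 and 110 CPM in DMSO and at 115 and 122 CPM in dTAG-13. The groups did not overlap in either line, and the step was wider in DHX35-dTAG cells. The log2 fold change was 0.43 (95% interval 0.16 to 0.69) in DHX35-dTAG cells, the largest among the members, and 0.10 (-0.16 to 0.37) in GPATCH1-dTAG cells. The first had an unadjusted p of 0.00537 and an adjusted p of 0.715 in edgeR's fit, and the difference between the responses was -0.32 (-0.70 to 0.05) with an adjusted p of 0.862. These values were 0.26 and -0.15 without DMSO replicate 1 of the DHX35-dTAG line.

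Scd2, the main desaturase of these cells by CPM, was at 377 and 433 CPM in DMSO and at 514 and 507 CPM in dTAG-13 in DHX35-dTAG cells. In GPATCH1-dTAG cells it was at 434 and 441 CPM in DMSO and at 501 and 492 CPM in dTAG-13. Every dTAG-13 library lay above every DMSO library, with a gap from 441 to 492 CPM. The log2 fold changes were 0.33 (95% interval 0.14 to 0.53) and 0.18 (-0.02 to 0.38) in the 2 lines and 0.26 (0.12 to 0.40) across both, the last with an unadjusted p of 0.00237 and an adjusted p of 0.963 in edgeR's fit. Without DMSO replicate 1 of the DHX35-dTAG line, the value across both lines was 0.21 with an adjusted p of 0.0887, and over the 7 alternatives that used all 8 libraries the adjusted p ranged from 0.0748 to 0.967.

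Elovl5, an elongase of polyunsaturated chains, was at 66.5 and 95.4 CPM in DMSO and at 96.3 and 94.5 CPM in dTAG-13 in DHX35-dTAG cells. It was at 92.9 and 94.5 CPM in DMSO and at 87.0 and 97.7 CPM in dTAG-13 in GPATCH1-dTAG cells. The groups overlapped in both lines, and 1 low DMSO library set the difference in the first. The log2 fold change in DHX35-dTAG cells was 0.23 (95% interval -0.10 to 0.57) with all libraries and 0.00 without that library, and in GPATCH1-dTAG cells it was -0.02 (-0.36 to 0.32).

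Elovl6, which takes palmitate to stearate, was at 160 and 238 CPM in DMSO and at 233 and 242 CPM in dTAG-13 in DHX35-dTAG cells. It was at 249 and 241 CPM in DMSO and at 251 and 270 CPM in dTAG-13 in GPATCH1-dTAG cells. As for Elovl5, the groups of the DHX35-dTAG line overlapped apart from 1 low library. The log2 fold change there was 0.25 (95% interval -0.10 to 0.60) with all libraries and 0.00 without replicate 1 in DMSO, and in GPATCH1-dTAG cells it was 0.09 (-0.26 to 0.44).

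Fads1, the delta-5 desaturase, was at 45.2 and 59.8 CPM in DMSO and at 64.8 and 61.6 CPM in dTAG-13 in DHX35-dTAG cells. In GPATCH1-dTAG cells it was at 64.0 and 59.0 CPM in DMSO and at 55.3 and 59.3 CPM in dTAG-13. The DHX35-dTAG groups did not overlap, with dTAG-13 above, while the GPATCH1-dTAG groups overlapped and their means had the opposite order. The log2 fold changes were 0.27 (95% interval -0.03 to 0.56) and -0.10 (-0.40 to 0.19), and the difference between them, -0.37 (-0.79 to 0.05), did not pass in edgeR's fit (adjusted p = 0.862). Without the low DMSO library of the first line, Fads1 had 0.08 there, a difference of -0.19 between the responses, and -0.03 across both lines against 0.08 with it.

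Fads2, the delta-6 desaturase, was at 45.2 and 54.2 CPM in DMSO and at 63.9 and 58.5 CPM in dTAG-13 in DHX35-dTAG cells. In GPATCH1-dTAG cells it was at 48.5 and 50.7 CPM in DMSO and at 55.1 and 52.4 CPM in dTAG-13. The groups did not overlap in either line. The log2 fold changes were 0.30 (95% interval 0.05 to 0.55) and 0.12 (-0.13 to 0.36), and the first had an unadjusted p of 0.0228 and an adjusted p of 0.715 in edgeR's fit. It was 0.18 without DMSO replicate 1.

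**Figure D3:**
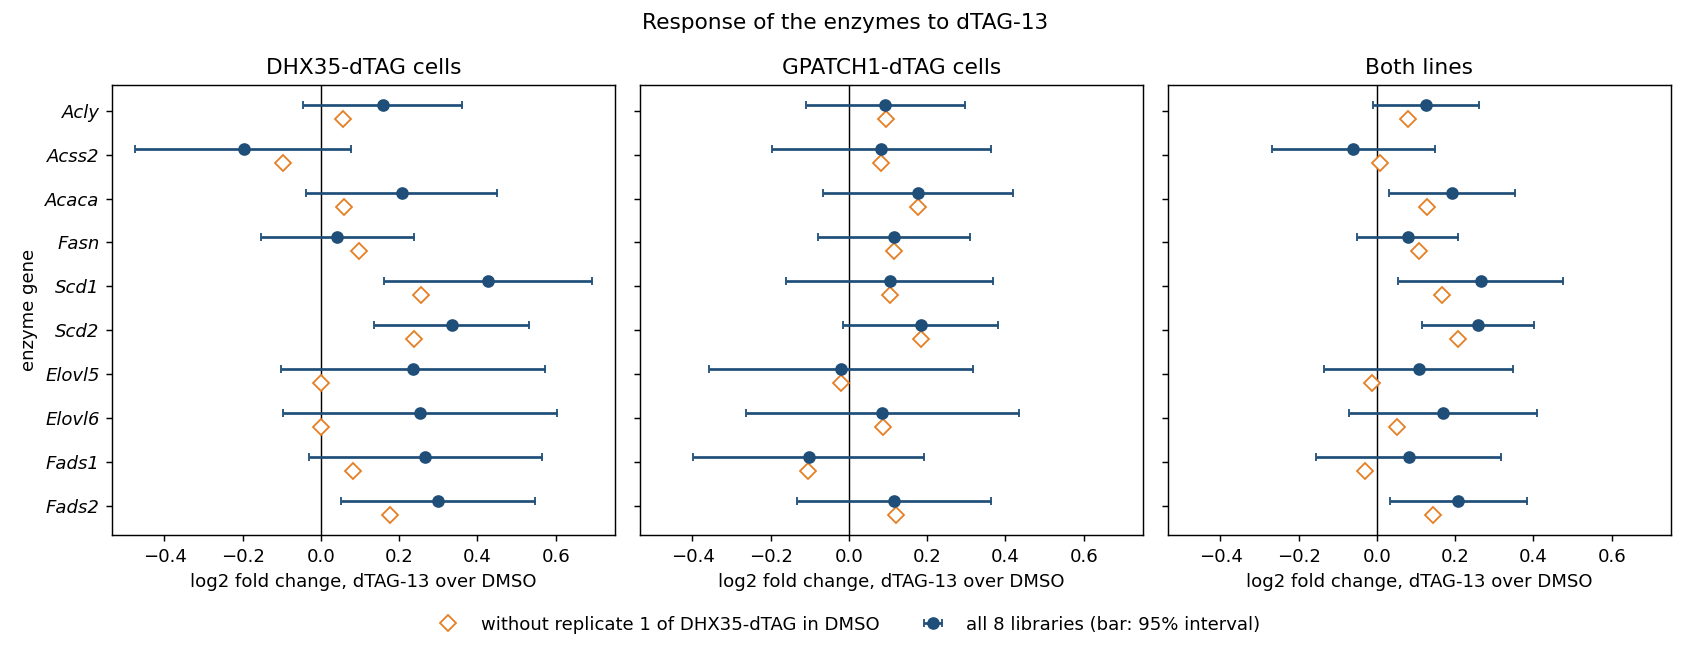
Log2 fold change of each enzyme gene, dTAG-13 over DMSO, in each line and across both. Filled points with bars are edgeR estimates from all 8 libraries with their 95% intervals, and open diamonds are the estimates without DMSO replicate 1 of the DHX35-dTAG line; in DHX35-dTAG cells Elovl5 and Elovl6 go to 0.00 without it, while Scd1 and Scd2 stay at 0.26 and 0.24.

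Taking the members as a list in DHX35-dTAG cells, 9 of 10 had a log2 fold change above 0 (all genes tested, 48.5%). Both dTAG-13 libraries lay above both DMSO libraries for 6 of 10, Acly, Acaca, Scd1, Scd2, Fads1 and Fads2 (all genes, 14.6%), and below them for 1, Acss2 (14.1%). At an unadjusted p under 0.05, 3 members were higher, Scd1, Scd2 and Fads2 (2.43% of all genes), and at an adjusted p under 0.05 none was called by edgeR or DESeq2 (0.0% of all genes by edgeR). The median log2 fold change of the members was 0.24, against -0.01 over all genes tested. Replicate 1 in DMSO was the lowest of all 8 libraries for 8 of 10 members (29.5% of all genes) and the highest for Acss2 (30.3%), so that it stood at one end for most genes, members or not.

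Without that library, the median of the members in DHX35-dTAG cells was 0.07 and 8 of 10 were above 0. The 2 dTAG-13 libraries were then above the 1 remaining DMSO library for 7 of 10 (30.7% of all genes). Scd1 at 0.26 and Scd2 at 0.24 kept the largest values, with unadjusted p of 0.00275 and 0.00222 and adjusted p of 0.902 and 0.878 in edgeR's fit, and Fads2 followed at 0.18. With the other DMSO library left out instead, 8 members passed the adjusted threshold in edgeR, as did 28.8% of all genes in that fit, and the median of the members was 0.45. The size of the DHX35-dTAG response thus depended on which DMSO library was used, and the lone DMSO library in each of these fits is assumed to vary like the other groups.

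In GPATCH1-dTAG cells the values of the members lay in a narrower range. A log2 fold change above 0 was found for 8 of 10 members (50.8% of all genes). The dTAG-13 libraries lay above the DMSO libraries for the same number and the same members, all except Elovl5 and Fads1 (21.5%). With all 8 libraries, no member reached an unadjusted p under 0.05 (0.886% of all genes were higher at this level). None was called at an adjusted p under 0.05 by edgeR or DESeq2 (0.0% of all genes by either tool). In the fit without DMSO replicate 1 of the DHX35-dTAG line, the log2 fold changes of Acaca and Scd2 in GPATCH1-dTAG cells were still at 0.18. Their standard errors were smaller there, 0.06 against 0.11 for Acaca and 0.05 against 0.09 for Scd2, so the unadjusted p of both depended on that library of the other line. The values with all libraries ran from -0.10 for Fads1 to 0.18 for Scd2 with a median of 0.10, against 0.00 over all genes.

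Across both lines, 9 of 10 members had a log2 fold change above 0 (48.1% of all genes), with a median of 0.15, or 0.09 without DMSO replicate 1 of the DHX35-dTAG line, against -0.01 over all genes. All 4 dTAG-13 libraries lay above all 4 DMSO libraries for 2 members, Acaca and Scd2 (1.03%). Within each line taken separately, the groups did not overlap and dTAG-13 was higher for 5, Acly, Acaca, Scd1, Scd2 and Fads2 (3.15%). At an unadjusted p under 0.05, 4 were higher, Acaca, Scd1, Scd2 and Fads2 (1.20%), and none was called at an adjusted p under 0.05 by edgeR (0.0% of all genes) or DESeq2 (0.0244%). The response in GPATCH1-dTAG cells minus that in DHX35-dTAG cells had a median of -0.16 over the members with all libraries and 0.00 without that replicate, and no member was called by edgeR or DESeq2 (0.0% of all genes by edgeR) or had an unadjusted p under 0.05.

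The 2 lines were also compared in DMSO, as GPATCH1-dTAG minus DHX35-dTAG. No member passed the adjusted threshold in edgeR or DESeq2, which 0.0916% of all genes did in edgeR. Acss2 was the only member with an unadjusted p under 0.05, at 12.9 and 13.4 CPM against 18.4 and 16.1 CPM, a log2 difference of -0.39 (95% interval -0.66 to -0.11, edgeR adjusted p = 0.341). At that level in edgeR, 1267 of the 16371 genes tested were lower and 850 were higher, so 1 member in 10 does not set the list apart. The remaining 9 had values from 0.00 for Fads2 to 0.30 for Elovl6, the latter 0.05 without DMSO replicate 1 of the DHX35-dTAG line. Above 0 were 5 of the 10 without that library, against 8 with it (7977 of the 16371 genes tested with it).

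**Figure D4:**
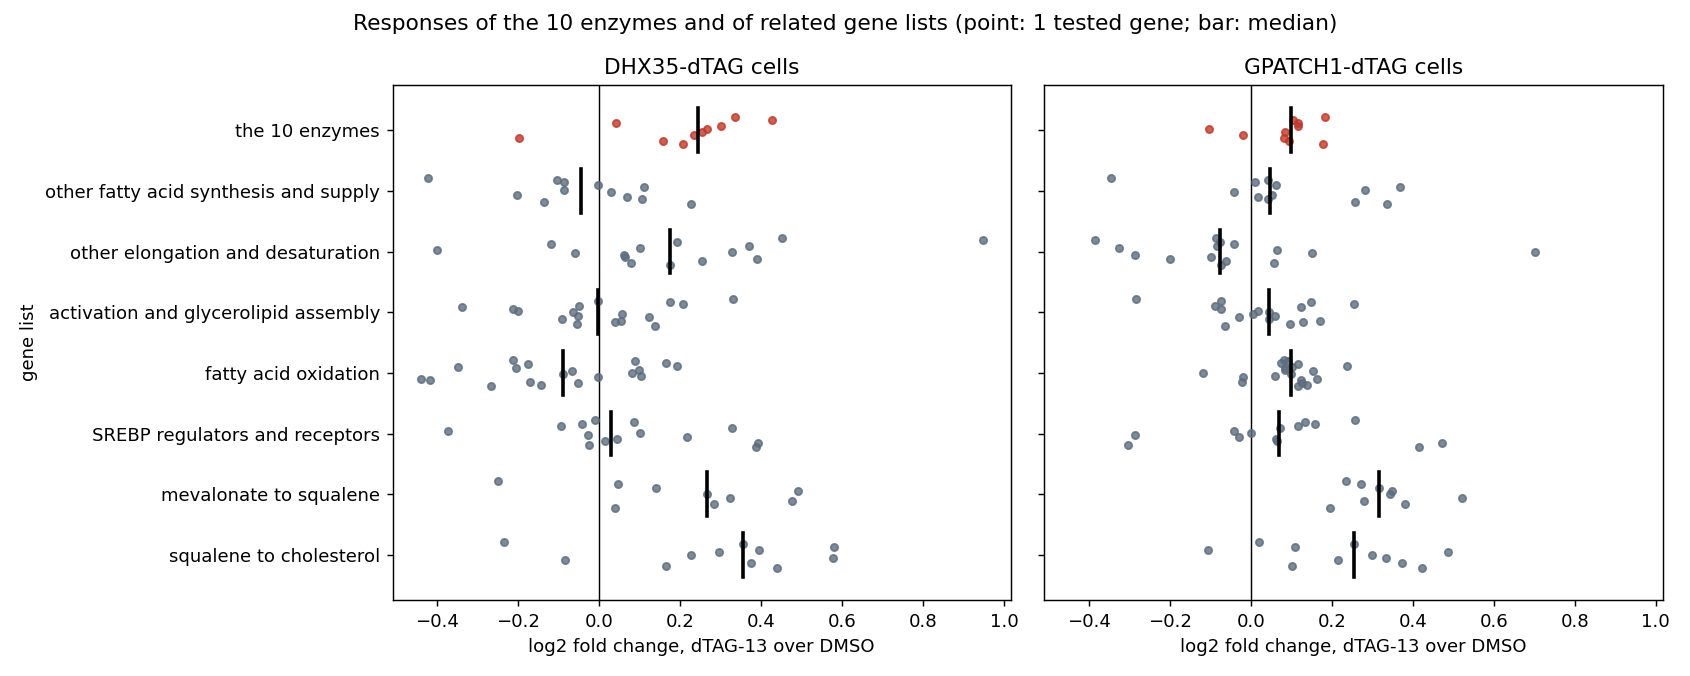
Log2 fold change, dTAG-13 over DMSO, of the 10 enzymes (red) and of the tested genes of 7 related lists (grey), in DHX35-dTAG cells (left) and GPATCH1-dTAG cells (right). Each point is 1 gene and each black bar a list median; the medians of the 10 enzymes are 0.24 and 0.10, and those of the enzymes from squalene to cholesterol 0.35 and 0.25.

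Other genes of the pathway were read from lists, beginning with the regulators. Srebf1, which encodes SREBP1, was between 81.2 and 98.4 CPM over all libraries, with log2 fold changes of -0.04 and 0.16 in DHX35-dTAG and GPATCH1-dTAG cells, and Srebf2 had 0.09 and 0.13. The first value of each was 0.09 and 0.16 without DMSO replicate 1. Insig1, which retains SREBP in the endoplasmic reticulum and is itself a target, was at 64.2 and 63.3 CPM in DMSO and 83.9 and 83.0 CPM in dTAG-13 in DHX35-dTAG cells, and at 65.4 and 62.5 against 86.6 and 84.1 CPM in GPATCH1-dTAG cells. Its log2 fold change across both lines was 0.40 (edgeR adjusted p = 0.159). The value was 0.41 without DMSO replicate 1 of the DHX35-dTAG line. With all 8 libraries, Insig1 passed under DESeq2 (0.0244% of all genes did), without an expression filter (0.245%) and under limma-voom with sample quality weights (0.055%). It did not pass in most of the 15 alternatives, over which the adjusted p ranged up to 1.0. All 4 dTAG-13 libraries of Insig1 lay above all 4 DMSO libraries. Insig2, a relative of Insig1, had -0.17 across both lines, and Mlxipl had -0.16.

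The cholesterol branch had larger medians than the fatty acid enzymes in the same libraries. From acetoacetyl-CoA to squalene, 9 genes had a median log2 fold change of 0.27 in DHX35-dTAG cells, 0.32 in GPATCH1-dTAG cells and 0.30 across both lines, and 6 of 9 were higher at an unadjusted p under 0.05 across both (1.20% of all genes). Idi1 had 0.42 across both lines, Fdps 0.37 and Fdft1 0.33. From squalene to cholesterol, 11 genes had medians of 0.35, 0.25 and 0.30, with 6 of 11 higher at that level across both lines (again 1.20%), among them Hsd17b7 at 0.45, Cyp51 at 0.43, Msmo1 at 0.39 and Dhcr7 at 0.37. With all 8 libraries, no gene of either list was called by edgeR at an adjusted p under 0.05. Without DMSO replicate 1 of the DHX35-dTAG line, in a fit in which 0.047% of all genes passed across both lines, the genes that passed there included Fdft1 (edgeR adjusted p = 0.000995), Cyp51 (0.000726) and Msmo1 (0.00104). Hmgcs1 (0.013) and Sqle (0.0325) also passed in that fit and are named here because of these values. With all 8 libraries, these 5 genes also passed across both lines without an expression filter (0.245% of all genes did) and under limma-voom with sample quality weights (0.055%). Cyp51 passed under DESeq2 too (0.0244%). The adjusted p of each of the 5 ranged up to 1.0 over 15 alternatives. No fatty acid enzyme passed across both lines in any of these alternatives, where the lowest adjusted p of Scd2 was 0.0748, under limma-voom. In GPATCH1-dTAG cells, the highest value among the 10 fatty acid enzymes, 0.18 for Scd2, was below the lowest of the 9 genes leading to squalene, 0.20. That order held for these lists in this line only. There, the values from squalene to cholesterol went down to -0.11, and Aacs and Mid1ip1 of fatty acid synthesis and supply had 0.34 and 0.37. In DHX35-dTAG cells the 10 enzymes reached 0.43, while the 9 genes went down to -0.25, although all 9 were above 0 without DMSO replicate 1. The lists were not tested against each other.

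Next to the members in function, Aacs, which activates acetoacetate for lipid synthesis, had a log2 fold change of 0.28 across both lines, with 28.1 to 30.5 CPM in DMSO and 33.5 to 38.1 CPM in dTAG-13 (edgeR adjusted p = 0.963). Mid1ip1, an activator of acetyl-CoA carboxylase, had 0.24, and Mecr and Mcat, both of mitochondrial fatty acid synthesis, had 0.10 and -0.08, or 0.18 and 0.05 without DMSO replicate 1 of the DHX35-dTAG line. In this list of synthesis and supply, 7 of 12 tested genes were above 0 across both lines (48.1% of all genes), or 9 without that library, and 1, Aacs, was higher at an unadjusted p under 0.05 (1.20%). Of the other elongation and desaturation genes, 10 of 15 were above 0 across both lines (48.1%), or 5 without that library, and none had an unadjusted p under 0.05. Their medians were 0.17 in DHX35-dTAG cells, or 0.04 without replicate 1 in DMSO, and -0.08 in GPATCH1-dTAG cells. Tecr, the last reductase of the elongation cycle, had 0.45 and -0.09 in the 2 lines, Hacd2, the dehydratase of the same cycle, 0.37 and -0.08, Degs1 0.25 and -0.06, and Elovl4 0.06 and -0.29. The DHX35-dTAG values of Tecr, Hacd2 and Degs1 came with low levels in replicate 1 in DMSO, as for Elovl5 and Elovl6, at 46.8, 21.7 and 55.9 CPM against 65.6, 35.2 and 80.5 CPM in replicate 2. Without it they were 0.23 for Tecr, 0.07 for Hacd2 and 0.02 for Degs1, and Elovl4 had -0.01.

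Further along, genes that activate fatty acids and assemble glycerolipids had a median of 0.02 across both lines, with 10 of 17 above 0 (48.1% of all genes), or of 0.001 and 9 of 17 without DMSO replicate 1 of the DHX35-dTAG line. Lpin1, a phosphatidate phosphatase, was higher at an unadjusted p under 0.05, at 0.23 across both lines (edgeR adjusted p = 0.963), and Lpin2 had 0.16, Agpat5 -0.09 (-0.05 without that library) and Dgat1 -0.14. Fatty acid oxidation, the opposing pathway, gave a median of -0.09 in the DHX35-dTAG line, or -0.02 without DMSO replicate 1, and of 0.10 in the GPATCH1-dTAG line. In the latter, 16 of its 19 tested genes were above 0 (50.8% of all genes), and dTAG-13 lay above DMSO without overlap for 14 (21.5%). Its median there, 0.098, equalled that of the members, so a small even difference in that line was also measured for genes of degradation. Across both lines, Etfdh, which passes electrons from oxidation to the respiratory chain, had 0.21, Acads -0.15, Acadvl -0.14 and Etfb -0.13, and 8 of 19 were above 0. Without DMSO replicate 1 of the DHX35-dTAG line, the last 3 genes turned to 0.06, 0.02 and 0.23, and 16 of 19 were above 0. In that library, Acads was at 87.6 CPM against 48.7 to 56.6 CPM elsewhere. No gene of these lists was called by edgeR at an adjusted p under 0.05 for treatment in either line or across both.

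With each line's mean removed, the Pearson correlation of a member with the mean of the other 9 over the 8 libraries was between 0.79 and 0.97 for 8 members, 0.04 for Fasn and -0.79 for Acss2. Without DMSO replicate 1 of the DHX35-dTAG line it was between 0.67 and 0.88 for Acly, Acaca, Fasn, Scd1, Scd2 and Fads2, 0.51 for Elovl6, 0.02 for Elovl5, -0.17 for Fads1 and -0.05 for Acss2. The libraries share their scaling, and genes compared in this way share its errors. The genes whose levels followed the mean of the members most closely were Lrrc49, Nupl2, Atp5o, Nadk, Iars and Plagl2, with r from 0.985 to 0.991 over the 8 libraries, and 601 of 8976 genes compared had r above 0.9. Without that library the 6 had r from 0.901 to 0.966, and the 6 genes with the highest r were others: Cpne5, Eif2ak1, Sqle (squalene epoxidase, of cholesterol synthesis), Nop16, Rdh11 and Sox13.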

How the data were processed

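RNA was sequenced from 8 libraries, 2 in each of 4 groups taken from the sample labels. The authors removed ribosomal RNA, added human DLD-1 RNA as a spike-in, made stranded libraries, trimmed reads with Trim Galore 0.6.6, checked them with FastQC 0.11.9 and aligned them to mm10 and hg19 with STAR 2.7.5c. The authors deposited raw counts per gene for each library. The counting program, annotation and strand setting are not given in the sources used here, and spike-in reads were not used here, so a change in total RNA would not be seen. The submitters' processing notes also name DESeq2 1.26.0.

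Counts were tested with the quasi-likelihood test of edgeR 4.0.16 in R 4.3.3 (TMM normalization, filterByExpr, all 8 libraries in 1 fit, Benjamini-Hochberg adjustment over 16371 genes, threshold 0.05). Treatment was tested in each line, across both lines with line as a term, and as the difference between lines, and the lines were compared in DMSO. The members and lists were chosen with earlier results of these data known. Beyond the members, the text names at most the 4 genes per list with the largest change across both lines at a mean CPM of at least 5, with Srebf1, Srebf2 and Insig1. Hmgcs1 and Sqle are named in addition, because of their adjusted p. The 6 genes with the highest correlation at a mean CPM of at least 10 are named with and without DMSO replicate 1 of the DHX35-dTAG line. Intervals use the standard error, which is the fold change over the square root of F. Some genes named by this rule are not reported here. Hsd17b8 and Scd5 were not analysed here.

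The spread between replicates was 11.2% as a coefficient of variation (common dispersion 0.0125). Chi-square per gene between replicates was 4.93 to 121, so none were duplicates. Nothing in the labels says that replicates were separate cultures, so p-values measure the spread between these libraries, which may be technical. Total counts of 12014203 to 14994173 gave every member at least 152 counts per library. Correlations of replicate differences between groups were 0.04 to 0.23, with 4 of 6 under 0.1, so equal numbers were not taken as pairs. The scripts were tested on simulated data. Alternatives were limma 3.58.1 voom with sample quality weights, DESeq2 1.42.0, its size factors in edgeR, no filter, a minimum of 10 counts per library, the replicate number as a block, a fit on 4 libraries only, leaving out Gm23935 and CT010467.1, and each library left out.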

Additional observations from a re-analysis of the deposited data

How the results depend on the processing

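Of 780 recomputed values of single members, 735 kept their direction and their side of the threshold, 22 kept their direction and came to pass the threshold, and 23 changed sign. The count of members called in DHX35-dTAG cells went from 0 to 1 without an expression filter (Scd1, edgeR adjusted p = 0.0188, where the 8 alternatives with no library left out ranged from 0.0188 to 1.0), a setting under which 1.06% of all genes were called. With 1 library left out at a time, it ranged from 0 to 8, that for the difference between the responses from 0 to 5, and that between the lines in DMSO from 0 to 8, with the highest counts in each case without DMSO replicate 2 of the DHX35-dTAG line. Without that library, 28.8%, 20.9% and 34.3% of all genes passed in these 3 comparisons. The medians of the members ranged from 0.069 to 0.449 in DHX35-dTAG cells, from -0.298 to -0.001 for the difference and from 0.004 to 0.284 between the lines. Members whose sign changed with 1 library left out ranged, in DHX35-dTAG cells, from -0.001 to 0.575 (Elovl6) and -0.024 to 0.11 (Fasn), and in GPATCH1-dTAG cells from -0.107 to 0.062 (Elovl5). Across both lines they ranged from -0.102 to 0.007 (Acss2), -0.012 to 0.191 (Elovl5) and -0.030 to 0.146 (Fads1). For the difference between the responses they ranged from -0.185 to 0.037 (Acly), -0.211 to 0.119 (Acaca) and -0.490 to 0.086 (Elovl6). Between the lines in DMSO they ranged from -0.008 to 0.321 (Acaca), -0.118 to 0.262 (Scd1), -0.025 to 0.503 (Elovl5) and -0.129 to 0.144 (Fads2). Under limma-voom with sample quality weights, Acss2 across both lines was 0.017 and Fads1 -0.028. Fads2 between the lines, -0.004 in the fit reported, was 0.012 without a filter, 0.005 without Gm23935 and CT010467.1 and 0.001 with only the 4 libraries compared. With the replicate block the medians were 0.26 in DHX35-dTAG cells, 0.10 in GPATCH1-dTAG cells and 0.15 across both lines, and it changed no call. The replicate numbers did not pair the libraries. DESeq2, its size factors in edgeR, the stricter filter and leaving out Gm23935 and CT010467.1 called no member. The causes of these changes were not tested.

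With 2 libraries in a group the intervals are wide. Those that exclude 0 did not pass the adjustment over all genes. Sums over all genes are fixed by the scaling, so levels are relative to the library. Splicing and protein were not analysed here.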
